A study of Homo sapiens with 6 samples.

Results

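The genes that encode the subunits of RNA polymerases I, II and III were examined on 6 Affymetrix HG-U133 Plus 2.0 arrays of IMR32. IMR32 is a human cell line derived from a neuroblastoma, with amplification of MYCN. The members were all probe sets annotated to a single gene symbol that starts with POLR1, POLR2 or POLR3 and a further letter. This rule used no measured value and gave 75 of the 54675 probe sets, for 32 of the 19775 genes with a probe set of their own. Of the 32 genes, 29 encode subunits. The other 3 are POLR2J2 and POLR2J4, which are copies of the subunit gene POLR2J, and POLR1HASP, an RNA antisense to POLR1H. POLR2M and POLR2J3 had no single-symbol probe set and are not among the 32 genes. Probe sets annotated to them together with other symbols are described near the end.

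Cells of 3 arrays had received 118 µM teriflunomide for 24 h and cells of the other 3 had received 0.1% DMSO for the same time, in each case 12 h after seeding. Teriflunomide inhibits dihydroorotate dehydrogenase, a mitochondrial enzyme that cells need to make pyrimidines. The labels do not state that the drug was given in DMSO. They call the samples biological replicates but not separate cultures, so the spread that the p-values measure is that among the arrays and may be technical. Values are GCRMA log2 intensities, and all differences are teriflunomide minus DMSO. GCRMA brings the arrays to nearly the same distribution, with array medians of 2.628 to 2.663 here. A shift shared by all genes would therefore largely not show. In RNA from whole cultures, fewer cells of a kind and less RNA per cell cannot be told apart. An intensity depends on the probes, so no probe set's level is compared with another's.

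RNA polymerase I makes the large ribosomal RNA precursor in the nucleolus. RNA polymerase II makes messenger RNA, and RNA polymerase III makes transfer RNA, 5S ribosomal RNA and other small RNAs. Each enzyme has its own catalytic pair of large subunits, and all consume pyrimidine nucleotides. Some small subunits are built into all of the enzymes, and POLR1C and POLR1D into RNA polymerases I and III.

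The teriflunomide arrays showed lower values for most of the genes that only RNA polymerase I uses. All 6 had negative log2 fold changes on their brightest probe sets, and 5 fell: POLR1A, POLR1B, POLR1E, POLR1F and POLR1G. With probe sets averaged per gene, or without DMSO replicate 3, POLR1F did not pass and 4 fell. POLR1F stood at 0.066 with averaging. Of the 5 subunits shared by all 3 enzymes, 4 fell, or 3 where the choice of probe set was changed. The 7 genes of RNA polymerase II alone and the 9 of RNA polymerase III alone had members in both directions. A gene was called at an adjusted p under 0.05 in limma, with Benjamini-Hochberg adjustment over all 11998 genes tested. Among all genes 28.9% were called lower and 29.7% higher, 58.6% in either direction.

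Over the 29 subunit genes, 17 fell, 5 rose and 7 did not pass. Over all 32 genes the numbers were 18 lower, 5 higher and 9 not passed. The share lower was 56.2% of the 32 and the share higher 15.6%. The median log2 fold change of the 32 was -0.17, against 0.0015 for all genes. The median size of change regardless of sign was 0.30 for the 32 and 0.29 for all genes. For 23 of the 32 genes no teriflunomide value fell within the DMSO range or the reverse, close to the 67% among all genes. On the probe sets that stand for the genes, POLR1A and POLR1G alone fell at least 2-fold, a class that holds 4.53% of all genes. At least 2-fold higher with an adjusted p under 0.05 were 0 of the 32, beside 629 of all 11998 genes tested. With probe sets averaged per gene, POLR1A stood at -0.82 and POLR1B at -1.05, and with plain-suffix probe sets preferred, POLR1B stood at -2.18 and POLR2L at -1.41.

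**Figure D1:**
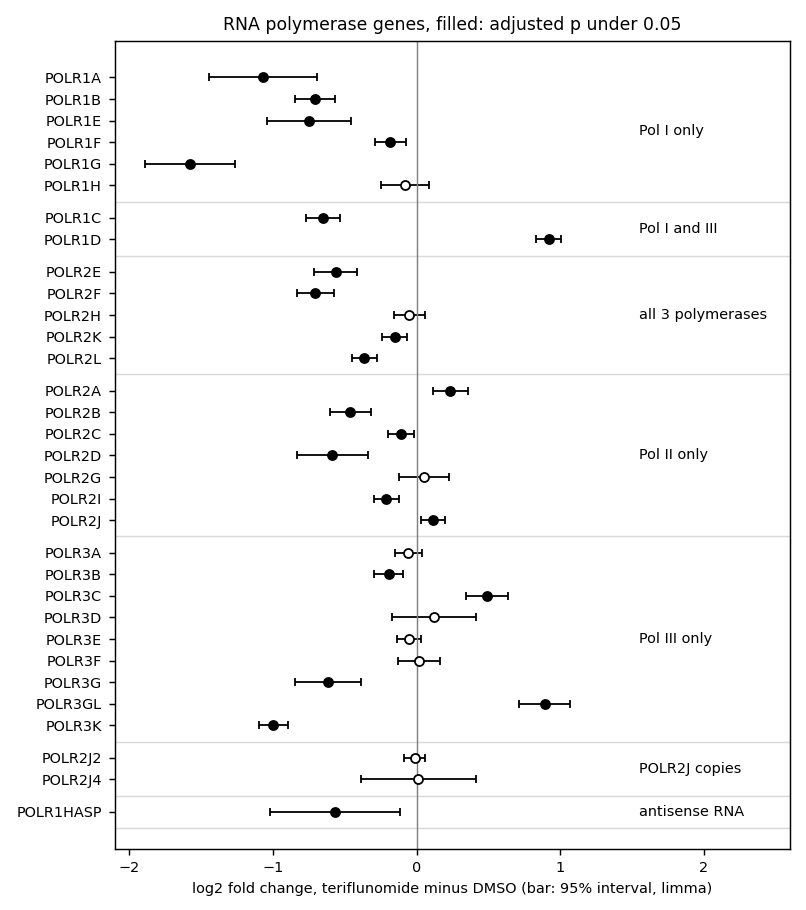
Log2 fold change of each of the 32 genes, teriflunomide minus DMSO, grouped by the polymerase that uses the product. Points are limma estimates and bars 95% confidence intervals, with filled points at an adjusted p under 0.05. The RNA polymerase I genes all lie below 0, from POLR1G at -1.57 to POLR1H at -0.08, while POLR1D and POLR3GL stand farthest to the other side.

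POLR1G encodes a subunit that pairs with the POLR1E product on RNA polymerase I and takes part in initiation. It had log2 intensities of 7.97, 8.42 and 8.25 with teriflunomide, against 9.83, 9.69 and 9.85 with DMSO. Every teriflunomide array lay more than 1 log2 unit below every DMSO array. The log2 difference was -1.57 (SE 0.13, limma adjusted p = 0.000275), a ratio of 0.336, and its single probe set was the most reduced of the 32 representative ones. Its promoter is shown because, of the promoters found for the RNA polymerase I genes, it alone holds a CACGTG sequence. It covers the 250 bases before the annotated start (RefSeq, GRCh38.p14, chr19:45406394-45406643), 5′ to 3′, with the CACGTG in capitals.
POLR1G promoter: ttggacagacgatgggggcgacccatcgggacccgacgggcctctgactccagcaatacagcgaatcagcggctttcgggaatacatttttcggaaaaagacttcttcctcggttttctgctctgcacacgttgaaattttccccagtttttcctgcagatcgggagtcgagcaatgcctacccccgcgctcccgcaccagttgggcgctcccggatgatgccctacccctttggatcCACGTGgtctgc

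CACGTG is the E-box letter sequence that MYC family proteins are known to bind. It was searched for on both strands, as were the ETS type sequence CCGGAAG and the GC box GGGCGG. The CCAAT box, spelled by its name, and the TATA box TATAAA were searched for likewise. The members' part of the search covered 29 promoters of 23 of the 32 genes. Any member promoter on chromosome 8 was left out, whereas the set of all promoters was not restricted by chromosome. CACGTG was in 3 of the 29 promoters, those of POLR1G, POLR3A and POLR3C, or 10.34%, against 6.34% of all 35116 promoters of this length. CCGGAAG was in 8, or 27.59%, against 8.52%. GGGCGG was in 20, or 68.97%, against 42.64%, while CCAAT was in 6, or 20.69%, against 32.01%. None of the 29 held TATAAA, which 10.72% of all promoters hold. Median GC content was 61.6% in the members' promoters and 58.0% in all. Of the 3 genes with CACGTG, POLR1G fell, POLR3C rose and POLR3A did not pass. Factor binding was not measured.

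POLR1A and POLR1B encode the large catalytic pair of RNA polymerase I. POLR1A had 6.92, 7.36 and 7.38 with teriflunomide, against 8.21, 8.45 and 8.19 with DMSO (log2). The groups did not overlap, and teriflunomide replicate 1 was the lowest array. The log2 difference was -1.07 (SE 0.15, limma adjusted p = 0.00206), and the other POLR1A probe sets gave -0.85 and -0.54. POLR1B had 10.60, 10.73 and 10.72 with teriflunomide, against 11.35, 11.47 and 11.35 with DMSO, again with no overlap. It changed by -0.71 on the log2 scale (SE 0.06, limma adjusted p = 0.000256). All 4 POLR1B probe sets were lower. Their log2 fold changes were -0.65, -0.68 and -0.71 for 3 of them and -2.18 for the fourth, 1557331_at.

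POLR1E, the partner of POLR1G, averaged 9.15 ± 0.22 with teriflunomide and 9.89 ± 0.06 with DMSO (log2, SD, n = 3 each). Its log2 fold change was -0.75 (limma adjusted p = 0.00292), and both of its other probe sets were lower, at -1.04 and -0.91. POLR1F encodes part of the stalk that contacts the initiation factor RRN3. POLR1F had 10.35, 10.21 and 10.24 with teriflunomide, against 10.45, 10.44 and 10.46 with DMSO, a small difference with no overlap. Its log2 fold change was -0.18 (limma adjusted p = 0.0152), and without DMSO replicate 3 the adjusted p was 0.0502. The second POLR1F probe set gave 0.31 (adjusted p over probe sets 0.222). POLR1H, which serves in cleavage of the nascent RNA, did not pass at -0.08 (95% confidence interval -0.25 to 0.08, limma adjusted p = 0.326).

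POLR1C and POLR1D form the assembly platform of RNA polymerases I and III. POLR1C had 9.95, 9.89 and 9.84 with teriflunomide, against 10.56, 10.48 and 10.60 with DMSO. All teriflunomide arrays were lower, with a log2 fold change of -0.65 (SE 0.05, limma adjusted p = 0.000217). The second POLR1C probe set gave -0.61. POLR1D went both ways. Its brightest probe set, 218258_at, had 13.58, 13.60 and 13.60 with teriflunomide, against 12.63, 12.72 and 12.67 with DMSO. All teriflunomide arrays were higher there, by 0.92 (SE 0.04, limma adjusted p = 3.85e-05). The other POLR1D probe sets were lower: 224874_at averaged 9.86 with teriflunomide and 10.6 with DMSO, and 224857_s_at averaged 9.18 with teriflunomide and 9.97 with DMSO. Their log2 fold changes were -0.76 and -0.79. The direction for POLR1D therefore depends on the probe set, and with the mean of its probe sets it was -0.21. Which transcripts each probe set reads was not analysed here. The promoters of POLR1C and POLR1D are shown because the products form a pair while the representative probe sets moved in opposite directions (RefSeq, GRCh38.p14, 250 bases before the start). They lie at chr6:43516839-43517088, chr13:27620493-27620742 and chr13:27621642-27621891. Capitals mark ETS type, GC box and CCAAT box matches on either strand, and in POLR1C some capitals belong to overlapping matches.
POLR1C promoter: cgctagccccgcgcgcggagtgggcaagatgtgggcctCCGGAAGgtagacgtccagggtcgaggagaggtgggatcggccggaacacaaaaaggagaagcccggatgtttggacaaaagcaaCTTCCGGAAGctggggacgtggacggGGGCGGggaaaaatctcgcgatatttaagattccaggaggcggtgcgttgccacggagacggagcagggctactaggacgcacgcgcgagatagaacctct
POLR1D promoter, first start: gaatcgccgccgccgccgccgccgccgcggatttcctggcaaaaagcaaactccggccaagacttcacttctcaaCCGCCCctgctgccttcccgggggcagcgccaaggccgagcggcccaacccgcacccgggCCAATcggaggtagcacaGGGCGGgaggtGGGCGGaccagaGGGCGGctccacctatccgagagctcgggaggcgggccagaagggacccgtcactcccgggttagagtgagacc
POLR1D promoter, second start: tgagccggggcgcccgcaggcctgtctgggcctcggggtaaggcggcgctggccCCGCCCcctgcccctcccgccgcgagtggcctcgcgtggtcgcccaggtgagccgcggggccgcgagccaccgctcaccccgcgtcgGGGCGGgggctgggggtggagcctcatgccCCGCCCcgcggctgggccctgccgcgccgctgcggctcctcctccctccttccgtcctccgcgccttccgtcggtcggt

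CCGGAAG stood in the POLR1C promoter and in neither POLR1D promoter, whereas GGGCGG stood in all 3. The 250 bases before the second POLR1D start had a GC content of 80.8%, against 70.0% before the first and 61.2% for POLR1C.

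**Figure D2:**
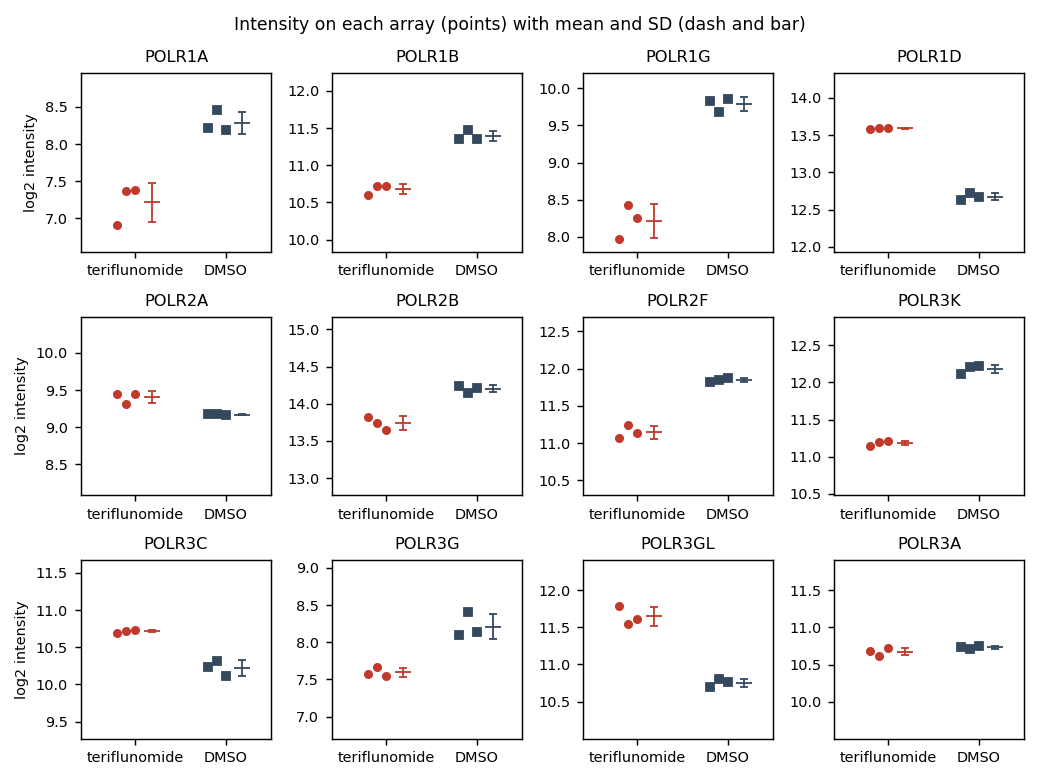
Log2 intensity on each array for selected genes, teriflunomide left of DMSO, with each point an array, the dash the group mean and the bar the SD (n = 3). POLR1G, POLR1A and POLR3K show teriflunomide arrays below all DMSO arrays, and POLR1D (218258_at) and POLR3GL show them above.

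Of the 5 subunits common to all 3 enzymes, POLR2F, POLR2E, POLR2L and POLR2K fell and POLR2H did not pass. They are small structural subunits at the jaw, the core and the assembly platform. POLR2F had 11.06, 11.24 and 11.14 with teriflunomide, against 11.82, 11.85 and 11.88 with DMSO. The groups were well apart, at a log2 fold change of -0.70 (SE 0.05, limma adjusted p = 0.000219). A dim second POLR2F probe set gave -0.0043 without passing, and the average of both gave -0.35. POLR2E had 11.08, 11.08 and 10.95 with teriflunomide, against 11.66, 11.51 and 11.64 with DMSO. It too was lower on every teriflunomide array, at -0.56 (limma adjusted p = 0.000744), and its second probe set gave -0.55. POLR2L fell by 0.36 (limma adjusted p = 0.000474), and a dimmer probe set of it gave -1.41. POLR2K changed by -0.15 (limma adjusted p = 0.0136), the smallest of the 4. Its second probe set gave -0.22 without passing (adjusted p over probe sets 0.156), and POLR2K did not pass with its probe sets averaged (adjusted p = 0.0548) or with a plain-suffix probe set preferred (0.138). POLR2H stood at -0.05 (95% confidence interval -0.16 to 0.06).

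Of the 7 genes specific to RNA polymerase II, POLR2B, POLR2C, POLR2D and POLR2I fell, POLR2A and POLR2J rose, and POLR2G did not pass. The median log2 fold change was -0.11. POLR2A encodes the largest subunit, whose C-terminal tail couples transcription to RNA processing. POLR2A had 9.45, 9.31 and 9.45 with teriflunomide, against 9.17, 9.17 and 9.16 with DMSO. The teriflunomide arrays were all higher, by 0.24 (SE 0.05, limma adjusted p = 0.00857). POLR2B, the other catalytic subunit, had 13.83, 13.74 and 13.65 with teriflunomide, against 14.24, 14.15 and 14.21 with DMSO. Here all teriflunomide arrays were lower, with log2 fold changes of -0.46 for each of the 2 probe sets tested (gene-level limma adjusted p = 0.00125).

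POLR2D and POLR2G form the stalk of RNA polymerase II. POLR2D had 9.31, 9.54 and 9.68 with teriflunomide, against 10.09, 10.05 and 10.14 with DMSO. It was lower on all teriflunomide arrays, at -0.59 (limma adjusted p = 0.004), with -0.57 from its second probe set, while POLR2G stood at 0.05 (95% confidence interval -0.12 to 0.23). POLR2I, which serves in transcriptional fidelity, changed by -0.21 (limma adjusted p = 0.00364). POLR2C and POLR2J, the assembly platform, changed by -0.11 (limma adjusted p = 0.0435) and 0.12 (limma adjusted p = 0.0318). Both calls were fragile. POLR2C did not pass when any array but DMSO replicate 2 was left out (adjusted p 0.0864 to 0.11), and its other probe sets gave 0.0147 and -0.000845. POLR2J did not pass without teriflunomide replicate 2 or 3 or DMSO replicate 1 or 3 (0.0776 to 0.0909), and its near-identical copies can share its probes. The copies POLR2J2 and POLR2J4 stood at -0.01 and 0.01 and did not pass.

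Of the 9 genes specific to RNA polymerase III, 3 fell, 2 rose and 4 did not pass, and their median was -0.05. The share lower, 33.3%, lies near the 28.9% among all genes. POLR3K encodes the subunit that serves in RNA cleavage and in termination. POLR3K had 11.15, 11.20 and 11.21 with teriflunomide, against 12.11, 12.20 and 12.22 with DMSO. The groups were separated by far more than their spread, with a log2 fold change of -0.99 (SE 0.04, limma adjusted p = 4.56e-05), a ratio of 0.502. A dim second probe set gave -0.81 without passing.

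POLR3G and POLR3GL are alternative forms of the same subunit: POLR3G is known from pluripotent and many tumour cells, and POLR3GL from most differentiated tissues. They moved in opposite directions. POLR3G had 7.58, 7.66 and 7.54 with teriflunomide, against 8.09, 8.40 and 8.13 with DMSO. POLR3GL had 11.78, 11.54 and 11.61 with teriflunomide, against 10.70, 10.80 and 10.77 with DMSO. All teriflunomide arrays were below all DMSO arrays for POLR3G and above them for POLR3GL. The log2 fold changes were -0.62 (SE 0.09, limma adjusted p = 0.00263) and 0.89 (SE 0.07, limma adjusted p = 0.000273). A dim second POLR3G probe set gave -0.26 without passing (limma adjusted p over probe sets 0.216), and POLR3GL had only 1 probe set. The difference between the paralogues was not itself tested. The promoters of POLR3GL and POLR3K are shown as those of the RNA polymerase III genes with the largest changes in either direction (chr1:145964440-145964689, plus strand, and chr16:53609-53858, minus strand). Capitals mark GC box and CCAAT box matches on either strand, and each promoter held both.
POLR3GL promoter: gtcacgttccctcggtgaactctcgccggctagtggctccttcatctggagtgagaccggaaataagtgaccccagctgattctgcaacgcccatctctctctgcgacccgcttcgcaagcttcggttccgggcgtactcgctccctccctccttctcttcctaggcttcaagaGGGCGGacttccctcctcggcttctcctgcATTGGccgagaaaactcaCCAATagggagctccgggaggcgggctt
POLR3K promoter: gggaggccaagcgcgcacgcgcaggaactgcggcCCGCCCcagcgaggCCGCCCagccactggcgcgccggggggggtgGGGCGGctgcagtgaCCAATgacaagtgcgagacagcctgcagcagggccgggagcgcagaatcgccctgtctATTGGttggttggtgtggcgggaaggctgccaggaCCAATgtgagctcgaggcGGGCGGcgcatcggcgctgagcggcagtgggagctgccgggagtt

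POLR3C, of the initiation subcomplex, rose by 0.49 (limma adjusted p = 0.00106). Its arrays read 10.70, 10.72 and 10.73 with teriflunomide, against 10.24, 10.32 and 10.11 with DMSO, and its second probe set gave 0.52. POLR3F of the same subcomplex stood at 0.02 (95% confidence interval -0.13 to 0.17). Of the catalytic pair, POLR3B changed by -0.19 (limma adjusted p = 0.00877), and POLR3A stood at -0.06 (95% confidence interval -0.15 to 0.04). POLR3D and POLR3E, which form a dimer in the enzyme, stood at 0.12 (-0.17 to 0.41) and -0.05 (-0.14 to 0.03) and did not pass. CRCP, the subunit of RNA polymerase III whose symbol lies outside the rule, stood at -0.18 (limma adjusted p = 0.0594) on its brightest probe set. Its second probe set gave -0.36 (adjusted p over probe sets 0.00317), and the average of both gave -0.27 (adjusted p = 0.00207). Counting shared subunits with each enzyme, 10 of 13 genes fell for RNA polymerase I, 8 of 12 for RNA polymerase II and 8 of 16 for RNA polymerase III. These counts share genes, and the differences between the enzymes were not tested.

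At the level of probe sets, 60 of the 75 passed the filter on low values, and the 15 that did not had means of 2.18 to 2.64, near the lowest value on the arrays. Of the 60, 30 were lower, 6 higher and 24 not passed, beside 25.2% lower and 23.7% higher among all 27290 probe sets tested. For 21 genes 2 or more probe sets were tested. All were lower for 8 genes and all higher for POLR3C, while POLR1D alone had calls in both directions. POLR1HASP, the antisense RNA, was dim, with 4.21, 4.19 and 3.96 on the teriflunomide arrays and 4.66, 5.03 and 4.37 on the DMSO arrays. Its log2 fold change was -0.57 (limma adjusted p = 0.0398), its other tested probe set gave 0.53, and the call was lost without any array but DMSO replicate 3 (adjusted p 0.0557 to 0.115).

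**Figure D3:**
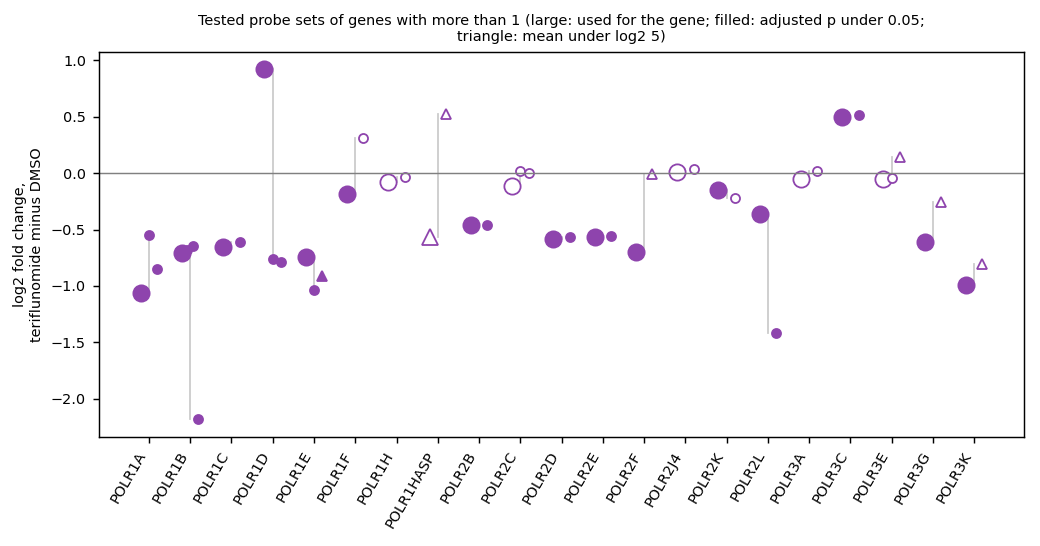
Log2 fold change, teriflunomide minus DMSO, of every tested probe set of the 21 genes with more than 1. Large symbols are the probe sets that stand for the gene, filled symbols have an adjusted p under 0.05 over all probe sets, and triangles have a mean under log2 5. Many genes have probe sets close together, whereas POLR1D spans -0.79 to 0.92 and POLR1B -2.18 to -0.65. Other wide spans are those of POLR1HASP (-0.57 to 0.53), POLR2L (-1.41 to -0.36), POLR2F (-0.70 to -0.0043), POLR1A (-1.07 to -0.54) and POLR1F (-0.18 to 0.31).

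Factors that work with the polymerases were counted from lists chosen by function. Of 7 RNA polymerase I factors, 3 fell, 1 rose and 3 did not pass. TAF1D, of the promoter selectivity complex, averaged 8.07 ± 0.17 with teriflunomide and 9.52 ± 0.26 with DMSO, a log2 fold change of -1.45 (limma adjusted p = 0.000736). TAF1A of the same complex changed by -0.29 and RRN3, which recruits the enzyme, by -0.25. UBTF, the upstream binding factor, rose by 0.48 (limma adjusted p = 0.000138) on its brightest probe set, while the other UBTF probe sets gave 0.46, 0.32 and -1.52.

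Of 18 general factors of RNA polymerase II, 3 fell, 7 rose and 8 did not pass. That is 16.7% lower and 38.9% higher, against 28.9% and 29.7% among all genes. Without the filter or with centred arrays 5 rose, and with the filter at the 75th percentile 8 did. TCEA1, an elongation factor, rose by 1.02 (limma adjusted p = 5.24e-05) on its brightest probe set, while a dim TCEA1 probe set gave 0.16 without passing. GTF2H4, of TFIIH, rose by 0.78. GTF2A1, of TFIIA, fell by 1.22 (limma adjusted p = 3.4e-05) and ERCC3, a TFIIH helicase, by 0.40. A dim second GTF2A1 probe set gave -0.02 without passing, and the average of both gave -0.62. TBP, shared by all 3 systems, stood at -0.14 (limma adjusted p = 0.0722). Of 17 RNA polymerase III factors, 11 fell, 3 rose and 3 did not pass. The median was -0.20. GTF3C4, of TFIIIC, averaged 7.93 ± 0.17 with teriflunomide and 11.06 ± 0.05 with DMSO (SD, n = 3 each), a log2 fold change of -3.13 (limma adjusted p = 2.52e-05), while the other GTF3C4 probe sets gave -0.09 and, dim, 0.41. SNAPC1, of the complex that recruits the enzyme to small nuclear RNA genes, fell by 0.81. SNAPC4 of that complex was lower too, at -0.62 (limma adjusted p = 0.00635), and its second probe set gave -0.82. SNAPC3 and SNAPC5 of that complex rose by 0.68 and 0.48, and the other SNAPC3 probe sets gave 1.21, 0.09 and -0.75. BRF1, of TFIIIB, was dim and changed by -0.45, and MAF1, the repressor of RNA polymerase III, stood at 0.08 (95% confidence interval -0.06 to 0.23).

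Of 14 factors that help assemble the enzymes, 3 fell, 3 rose and 8 did not pass. RUVBL1, an ATPase, and DNAAF10, both of the cochaperone assembly, fell by 1.02 and 0.93. RPAP2 and GPN1, known for nuclear import of RNA polymerase II, rose by 0.56 and 0.23. A second RPAP2 probe set gave -0.07 without passing (limma adjusted p over probe sets 0.233). Of 6 genes listed under mitochondrial transcription, 4 fell, TFB1M among them, and 1 rose. Whether TFB1M takes part in transcription was not examined. TFB2M, needed for initiation in mitochondria, fell by 1.37. TFB1M fell by 0.50, and its other probe sets gave -0.56 and, without passing, -0.13. TEFM rose by 0.24, with a second probe set also at 0.24 that did not pass, and POLRMT, the mitochondrial RNA polymerase, stood at -0.07 (95% confidence interval -0.18 to 0.04). Over the 5 lists 24 of 62 genes fell and 15 rose. That is 38.7% lower and 24.2% higher, against 28.9% and 29.7% among all genes. DHODH, the gene of the drug's target, was dim and averaged 2.81 with teriflunomide and 3.89 with DMSO, a log2 fold change of -1.08 (limma adjusted p = 0.0134).

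**Figure D4:**
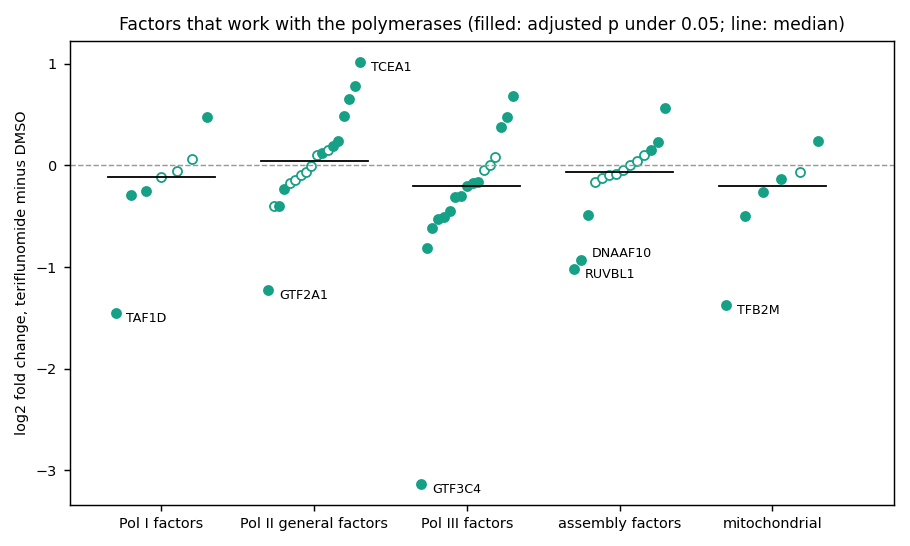
Log2 fold change, teriflunomide minus DMSO, of each gene in the 5 lists of factors, with filled points at an adjusted p under 0.05. GTF3C4 at -3.13 lies far below the rest, and most RNA polymerase III factors lie below 0.

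Identity and quality were examined over the whole arrays. Of 12 neuroblastoma markers with a probe set, 10 were tested, of which 4 rose, 2 fell and 4 did not pass. PHOX2A rose by 0.76, GATA3 by 0.35, ISL1 by 0.22 and ELAVL4 by 0.17, while CHGA fell by 1.46 and MYCN by 0.43. MYCN averaged 14.69 with teriflunomide and 15.11 with DMSO, and TH and STMN2 lay at the floor of 2.18. Of 13 markers of other cell types, 10 had a mean under log2 3, with PTPRC, CD3E, CD14 and CDH5 at the floor, and COL1A1 rose by 0.94. The summed linear intensity of the 13 was 3420 to 3705 with teriflunomide and 1841 to 1999 with DMSO, and without COL1A1 it was 118.2 to 120.7 with teriflunomide and 107.5 to 126.8 with DMSO. The 3 prime minus 5 prime difference of the ACTB control probe sets was 1.62 ± 0.07 with teriflunomide and 1.36 ± 0.03 with DMSO (log2, SD, n = 3 each, exact permutation test, two-sided p = 0.1, the smallest possible with 3 arrays against 3). For GAPDH it was 0.063 with teriflunomide and 0.049 with DMSO (exact permutation p = 0.4). The part of these differences in the polymerase results was not tested.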

How the data were processed

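The deposited values are log2 intensities, 1 per probe set and array, which the authors made with GCRMA per the submitters' processing notes; no version is given in the sources used here. The lowest value was 2.18, and 33.9% to 34.3% of the probe sets of each array lay at it, so fold changes of dim probe sets depend on the background model. Symbols came from the platform annotation. Probe sets with a value at or above the array median on at least 3 of 6 arrays were tested, and the one with the highest mean stood for its gene. Teriflunomide was compared with DMSO over all genes with limma 3.58.1 (lmFit and eBayes, R 4.3.3), without covariates, two-sided, with Benjamini-Hochberg adjustment over 11998 genes or 27290 probe sets. The fit was run on simulated data with independent noise and few changed genes, which cannot give the rate of false calls in these arrays. Arrays give no read depth, and 3 arrays per group limit the precision. Promoters were searched with Python 3.11.15 in RefSeq sequences of GRCh38.p14.

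The members, the lists and the tests were chosen with earlier results of these data known. Every member gene is named, as are the 2 largest changes past the threshold in each direction of each list of factors. UBTF, RRN3, MAF1, BRF1, TBP, CRCP, RPAP2, GPN1, POLRMT and DHODH are named too, and SNAPC4 beside the other members of its complex. Replicate numbers were not used to pair the samples in the main fit. Deviations of same-numbered arrays correlated at 0.128, 0.152 and -0.0452, and those of differently numbered arrays at -0.187 to 0.0574. With 3 arrays per group these correlations cannot decide whether the samples were paired. The 16 alternative settings were other filters, scalings, floors, choices of probe set, variance models, the replicate block and leaving out each array.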

Additional observations from a re-analysis of the deposited data

Results flagged for a closer look

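A further 11 probe sets carry several gene symbols, at least 1 of them a POLR1, POLR2 or POLR3 gene. They were assigned to no gene and stand outside the comparisons above. Of the 8 that passed the filter, 3 were higher with teriflunomide, 1 was lower and 4 did not pass (limma, adjusted over probe sets). The 3 higher ones were flagged because they carry a difference in data the comparisons leave out, as does the lower one. Probe set 212241_at, annotated to MYZAP, GCOM1 and POLR2M, averaged 9.08 ± 0.05 with teriflunomide and 8.07 ± 0.12 with DMSO (log2, SD, n = 3 each), a log2 fold change of 1.00 (limma adjusted p = 0.000292). Probe set 212243_at, annotated to GCOM1 and POLR2M, had a log2 fold change of 0.17 (limma adjusted p = 0.0265). Probe set 216242_x_at, annotated to UPK3BL1 and the POLR2J family, had 0.14 (limma adjusted p = 0.025). Probe set 212244_at, annotated to GCOM1 and POLR2M like 212243_at, was lower, at -0.26 (limma adjusted p = 0.0105).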

How the results depend on the processing

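Across the 16 alternative settings, 25 of the 32 genes kept their call and direction, among them 16 of the 23 that passed; the cause of each change below was not tested. The number of genes lower was 15 to 18 and higher 4 or 5. The number of RNA polymerase II genes higher was 1 in place of 2 with centred arrays and with the replicate block, and 1 to 2 when single arrays were left out. With the block, 17 genes were lower and 4 higher. TAF1A and RRN3 did not pass with the block (limma adjusted p = 0.0594 and 0.0507), which left 1 RNA polymerase I factor lower in place of 3. With probe sets averaged per gene, the RNA polymerase I and III pair had 2 lower and 0 higher in place of 1 and 1, and the median of the 32 genes was -0.12 in place of -0.17. That averaging turned POLR1D to -0.21, POLR1F to 0.066 and UBTF to -0.066. Preferring probe sets with a plain suffix turned UBTF to -1.52 and SNAPC3 to -0.75, and moved POLR3K to -0.81 (limma adjusted p = 0.0706), TCEA1 to 0.16 (0.125) and TFB1M to -0.13 (0.378), none of which then passed. With averaging TEFM did not pass (0.192). POLR2K did not pass under either choice, which left 3 subunits common to all enzymes lower in place of 4. CRCP passed in 5 settings, among them averaging. Assembly factors lower numbered 5 in place of 3 in 5 settings. With values under log2 5 raised to 5, DHODH stood at 0 and POLR1HASP at -0.01. Dim probe sets limit what these arrays show.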
